A study of Mus musculus with 4 samples.

Results

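The genes described here are 10 that gave high signal in activated CD4+ T cells lacking Irf4 and are mostly known from outside the immune system. They are the dehydrogenase gene Bdh2, the microtubule-associated Map2, the endosomal Wdfy1, the coiled-coil gene Ccdc184, the ubiquitin ligase subunit gene Asb2, the Rac regulator Srgap3, the amino acid transporter gene Slc43a1, the lipid flippase gene Atp8b4, the enkephalin precursor gene Penk and Sh3bgrl2. They were selected on their high signal in the knockout against wild type on these same arrays. Those differences are therefore given as a description with no test. All 10 had probes and were among the 20505 genes or unnamed transcripts tested, of 45526 on the array.

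Spleens of male C57BL/6 mice, either wild type or Irf4-/-, gave naive CD4+ T cells of the phenotype CD62L+CD44-, which were activated for 2 days with an antibody to CD3e at 1 µg/ml beside mitomycin C-treated antigen-presenting cells of the same strain. Living CD4+ cells were then sorted again for total RNA, under the same description for both genotypes. A treatment note on the samples names shorter cultures, and the day given in the titles and the design text is used here. Each genotype has 2 samples and 1 one-colour array per sample, from what the series' text calls independent experiments. The sources used here do not say how the Irf4 allele was made, how old the mice were or how many gave each sample. A limma p-value sets a difference against the spread between these samples, moderated by the spread over all tested genes. The latter had the greater weight (2.95 prior against 2 residual degrees of freedom). In a sorted bulk sample, more cells making a transcript and more transcript per cell cannot be told apart.

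Irf4 is a transcription factor that T cells induce on antigen receptor signalling. It binds DNA weakly by itself and mostly acts together with partners, either BATF and JUN proteins at AP-1 composite sites or ETS proteins such as PU.1, and it can both raise and lower transcription. Several of the genes here are best known from neurons. Map2 stabilises microtubules in the dendrites of neurons, Srgap3 limits Rac signalling in growing neurites, and Penk encodes the precursor of the enkephalin opioid peptides, which neurons, adrenal cells and also some T cells make.

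Levels are log2 of the background-subtracted signal minus the 75th percentile of the same array, so that 0 marks a probe at that percentile, and errors are SD over n = 2 arrays. A probe counts as measured where the scanner software called it well above background. The lowest such level was -4.82 and -4.07 on wild-type replicates 1 and 2 and -4.67 and -3.93 on knockout replicates 1 and 2. Replicate 1 of both genotypes lay in row 1 of the slide and replicate 2 in row 2, so a difference within a replicate number is also a difference within a row. Slide column 1 held both arrays of wild type, and the knockout arrays lay in columns 3 and 2, so an effect of column and genotype cannot be told apart. Irf4 itself, the targeted gene, differed by -0.75 ± 0.20 (SE, limma adjusted p = 0.231), and a second probe by -0.37. The main Irf4 probe read 5.03 and 4.74 in wild type and 4.23 and 4.04 in the knockout, so strong signal remained there. The position of both probes against the deletion is not known here. All 12 T cell markers were well above background on every array, with mean levels of 6.69 to 6.83 in wild type and 6.81 to 6.89 in the knockout. Of 12 B cell markers 9 to 10 were above background on wild-type arrays and 7 to 10 on knockout arrays. The mean level of the 9 tested was -2.19 and -2.69 in wild type and -1.48 and -2.43 in the knockout. Of 12 myeloid markers 5 to 6 were above background in wild type and 4 to 6 in the knockout, and Lyz2, Adgre1, Fcgr3, S100a8 and S100a9 were so on no array. The 5 myeloid markers tested had mean levels of 1.03 to 1.17 in wild type and 1.12 to 1.21 in the knockout. Of 8 dendritic cell markers 4 to 5 were above background in wild type and 4 in the knockout, and Itgax, Clec9a and Xcr1 were so on no array. The 4 tested had mean levels of 1.26 and 1.30 in wild type and 1.47 and 1.94 in the knockout, and all 4 differences were above 0. Of 7 NK cell markers 3 were above background in wild type and 2 to 4 in the knockout. The 2 tested, Eomes and Tyrobp, which T cells can also express, had mean levels of -0.42 and -1.15 in wild type and 0.99 and 0.76 in the knockout. Of 8 erythroid and platelet markers on the array 1 to 2 were above background in wild type and 2 to 3 in the knockout, and the 2 tested, both hemoglobin genes, had mean levels of -1.76 and -2.73 in wild type and -1.44 and -0.55 in the knockout. The CD8 T cell marker Cd8b1 read 3.12 and 3.21 in wild type and 2.23 and 2.14 in the knockout (adjusted p = 0.0979). The 3 plasma cell genes tested, Prdm1, Xbp1 and Irf4 itself, were lower on both knockout arrays than on both wild-type arrays, as were 21.3% of all tested genes. Their mean levels were 2.71 and 3.39 in wild type and 1.99 and 1.87 in the knockout. Prdm1 read -2.30 and 0.20 in wild type and -3.03 and -2.83 in the knockout (limma adjusted p = 0.506). None of the markers tested passed (limma; Tyrobp had an adjusted p of 0.065). The part of such cells in the results below was not tested.

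On all 10 genes both knockout arrays lay above both wild-type arrays, as they did for 17.9% of all tested genes. The median difference over the 10 was 3.26 on the log2 scale, against -0.02 over all tested genes. Over the 9 genes measured on both wild-type arrays, the differences ran from 2.25 to 4.27 within replicate 1 and from 2.82 to 3.62 within replicate 2. The other gene, Sh3bgrl2, was below background in wild type and has only a lower bound. Over all 10, the median was 3.36 within replicate 1 and 3.19 within replicate 2, and these medians and the 3.26 were the same with Sh3bgrl2 at its bound. Among tested genes with a symbol, 72 had a plain difference at least as large as the smallest of the 10, and 26 of the 72 were above background on all 4 arrays. The smallest, Penk at 2.80, lay just below Tmem171 (2.82, not above background in wild type) and just above Gldc (2.79), neither of which is in the list.

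**Figure D1:**
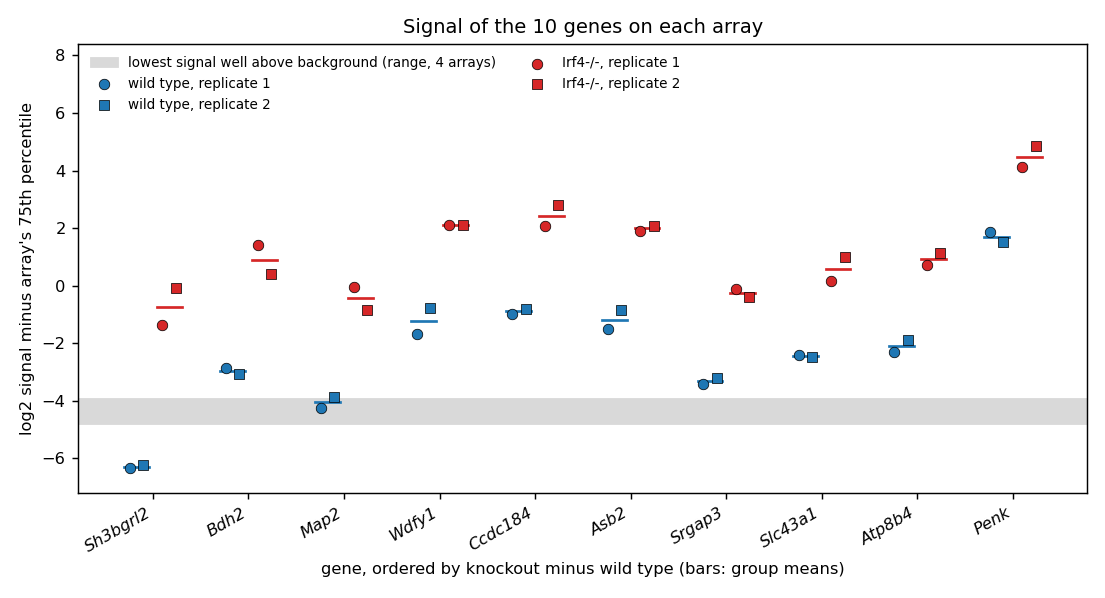
Signal of the 10 genes on each of the 4 arrays, as log2 signal minus the array's 75th percentile (vertical axis), with genes ordered by difference, circles for replicate 1, squares for replicate 2 and bars for group means. Red knockout points lie above blue wild-type points for every gene, and only Sh3bgrl2 has its wild-type points below the grey band that spans the lowest signal well above background on the 4 arrays (-4.82 to -3.93).

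Bdh2 encodes a cytosolic short-chain dehydrogenase that has been linked to ketone body use and to an iron-binding siderophore in mammals. Its level was -2.87 and -3.08 on wild-type replicates 1 and 2 and 1.40 and 0.39 on knockout replicates 1 and 2. Knockout replicate 1 was the brightest by a clear margin, and the knockout arrays lay farther apart than the wild-type arrays without coming near them. The means were -2.97 ± 0.15 and 0.89 ± 0.72, a difference of 3.87 or 14.6-fold, with 4.27 in replicate 1 and 3.46 in replicate 2. Bdh2 had 1 probe. Its promoter is shown because it holds 1 of the 2 motif matches found among the promoters of these genes. The stretch is the 250 bases before the RefSeq start of Bdh2 on GRCm38.p6, chr3:135280971-135281220 on the plus strand, with the match in capitals.
Bdh2 promoter: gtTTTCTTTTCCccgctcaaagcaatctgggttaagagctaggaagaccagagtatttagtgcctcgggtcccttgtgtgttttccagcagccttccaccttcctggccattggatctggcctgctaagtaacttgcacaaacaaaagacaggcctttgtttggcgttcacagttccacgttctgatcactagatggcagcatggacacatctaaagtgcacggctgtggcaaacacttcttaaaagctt
The capitals are TTTCTTTTCC, which is GGAA, any 2 bases, then GAAA read on the other strand, a form of the composite site for an ETS factor with an IRF factor. It lies 248 to 239 bases before the start.

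The motif search covered 5 patterns on both strands of the 250 bases before each start. Windows were on hand for 8 of the 10 genes (2 for Asb2, 9 in all), and Wdfy1 and Penk had none in the RefSeq table. The ETS with IRF pattern above occurred in 1 of the 9 windows and in 2.30% of all 32851 windows, and the AP-1 site TGANTCA in 1 of 9 (Atp8b4) and in 6.75% of all. A tandem IRF pattern, GAAA, any 2 bases, then GAAA (2.98% of all windows), occurred in none of the 9. Nor did either AP-1 with IRF composite, TTTC, any 4 bases, then TGANTCA (0.0974%) or GAAA directly followed by TGANTCA (0.1%), both of which contain the AP-1 site. These are letters in a short window and not measured binding. Beyond these patterns, only the base composition of the windows was read. That of Map2 was the richest in CpG, with 34 CpG and 81.2% G or C, and those of Atp8b4 and of 1 of the Asb2 starts were the poorest, with 3 each. The median over the 9 windows was 7 CpG, against 6 over all windows.

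Map2 had levels of -4.26 and -3.87 in wild type and -0.03 and -0.85 in the knockout. The wild-type signal was barely measured, at 1.47 and 1.15 times the lowest signal well above background, so its mean of -4.07 ± 0.28 rests on the edge of detection. The knockout signal was 24.8 and 8.47 times that limit, and the difference was 3.62 (12.3-fold). On knockout replicate 2 the local background of this spot carried an outlier flag, while the spot itself did not. A second Map2 probe was above background on knockout replicate 1 only, with levels of -6.96 and -6.27 in wild type and -3.09 and -4.29 in the knockout. Both probes thus had their highest value on knockout replicate 1.

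Srgap3, the other gene of the neuronal cytoskeleton, had levels of -3.44 and -3.23 in wild type and -0.14 and -0.41 in the knockout. It was among the most even of the 10, with SDs of 0.15 and 0.19 around means of -3.33 and -0.27. The difference was 3.06 (8.36-fold). It had 1 probe, at 2.61 and 1.79 times the detection limit in wild type.

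Penk, the opioid precursor gene, had signal far above the detection limit in both genotypes. Its level was 1.85 and 1.51 in wild type and 4.10 and 4.87 in the knockout, and none of its spots was saturated. In wild type the signal was 102 and 47.9 times the detection limit. The means of 1.68 ± 0.24 and 4.49 ± 0.54 differ by 2.80 (6.97-fold), with 2.25 in replicate 1 and 3.35 in replicate 2.

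Asb2 encodes the substrate-binding subunit of a cullin 5 ubiquitin ligase whose known substrates include filamins. Its level was -1.53 and -0.86 in wild type and 1.89 and 2.08 in the knockout. The wild-type arrays lay farther apart than the knockout arrays (means of -1.20 ± 0.47 and 1.99 ± 0.13). The difference was 3.18 (9.07-fold).

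Wdfy1 encodes an endosomal protein with WD repeats and a FYVE domain that has been described as an adaptor of Toll-like receptors 3 and 4, and its probes disagreed although all of them were above background on all 4 arrays. The main probe read -1.70 and -0.80 in wild type and 2.12 and 2.10 in the knockout, a difference of 3.36 (10.3-fold). A second probe to the same RefSeq transcript, NM_001111279, read -2.07 and -0.61 in wild type and 1.71 and 1.82 in the knockout, a difference of 3.10. The remaining probe, listed under another Wdfy1 transcript, NM_027057, read 0.32 and 0.36 in wild type and 0.49 and 0.23 in the knockout. That probe differed by 0.02, with 0.16 in replicate 1 and -0.13 in replicate 2. The increase of Wdfy1 is thus a statement about the 2 probes under NM_001111279 and not about all signal under its name. The exons that the probes cover are not known here.

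Slc43a1 encodes LAT3, a sodium-independent transporter of large neutral amino acids. Its main probe read -2.42 and -2.50 in wild type and 0.17 and 1.00 in the knockout, a difference of 3.05 (8.27-fold). A second probe under the same transcript read -3.74 and -3.77 in wild type and -3.39 and -2.57 in the knockout, a difference of 0.77 (1.71-fold). Both probes were above background on all 4 arrays and placed both knockout arrays above both wild-type arrays, but they disagree on the size.

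Atp8b4 encodes a P4-ATPase, a class of membrane pumps that move phospholipids between the leaflets of a membrane. Its level was -2.32 and -1.88 in wild type and 0.72 and 1.15 in the knockout. The differences in the replicates were nearly equal, at 3.03 each (8.17-fold overall). A second probe was above background in the knockout only, at -1.23 and -0.57, and at least 11.7-fold brighter there. Such a bound takes, for each wild-type array, its detection limit in place of any signal below it, and sets the knockout mean against the mean of these. The 250 bases before its start in RefSeq, GRCm38.p6 chr2:126491554-126491803 on the minus strand, hold the other motif match, shown in capitals.
Atp8b4 promoter: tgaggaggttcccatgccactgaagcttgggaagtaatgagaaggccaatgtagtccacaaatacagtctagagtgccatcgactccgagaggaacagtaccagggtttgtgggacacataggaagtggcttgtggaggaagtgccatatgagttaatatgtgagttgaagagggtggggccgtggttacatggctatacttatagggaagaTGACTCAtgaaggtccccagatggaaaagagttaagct
The capitals are the AP-1 site TGACTCA, 38 to 32 bases before the start. The pattern reads the same on both strands, and neither composite form searched was matched there.

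Ccdc184, a coiled-coil gene of little known function, read -0.98 and -0.82 in wild type and 2.06 and 2.80 in the knockout. The difference was 3.33 (10.1-fold). A second probe read -3.91 and -4.10 in wild type, where it was above background on 1 of 2 arrays, and -0.92 and 0.18 in the knockout, a difference of 3.63. On both probes knockout replicate 2 was the brightest array.

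Sh3bgrl2 encodes a small protein with a thioredoxin-like fold. It was the only one of the 10 with no measured signal in wild type, at -6.36 and -6.23, below the detection limit of both arrays. On the knockout arrays it read -1.39 and -0.08. Its signal was at least 13.1-fold higher in the knockout, and at least 10.8-fold within replicate 1 and at least 15.9-fold within replicate 2. The difference of 5.56 between the plain means includes signal below background and is no estimate of the fold. A second probe was not well above background on any array.

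**Figure D2:**
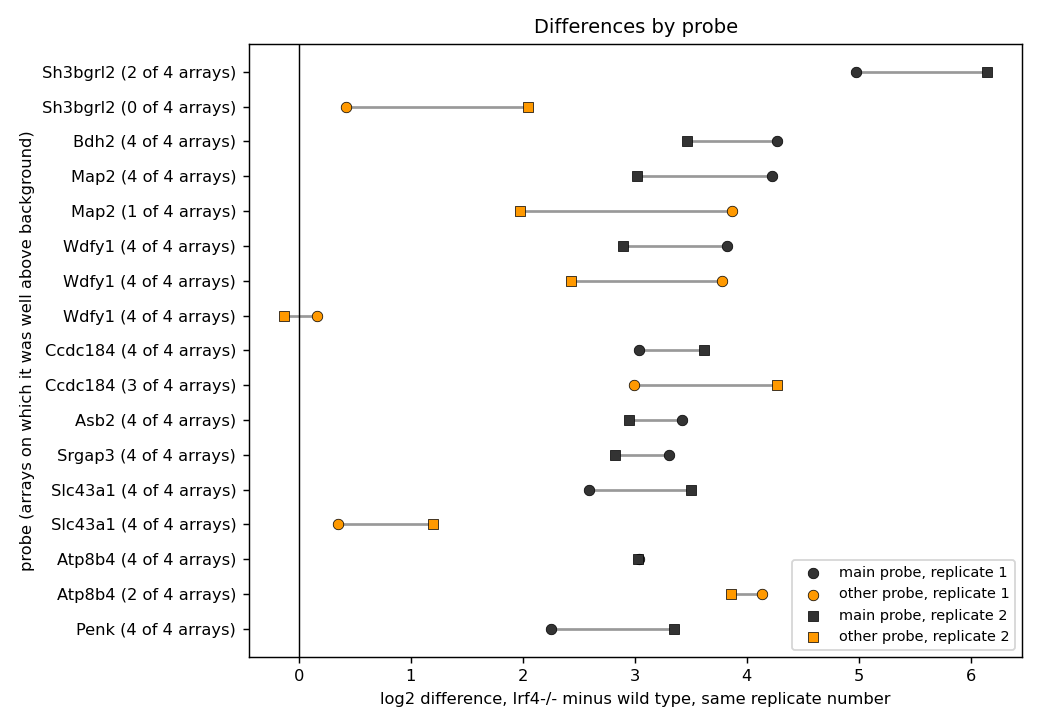
Log2 difference between knockout and wild-type arrays of the same replicate number (horizontal axis) for all 17 probes of the 10 genes, black for the probe that represents the gene and orange for the others, with circles for replicate 1 and squares for replicate 2. The Wdfy1 probe under NM_027057 sits at 0 (0.16 and -0.13) and the second Slc43a1 probe at 0.35 and 1.20, while the main probes measured on both wild-type arrays lie between 2.25 and 4.27; the Sh3bgrl2 points are plain differences that include signal below background, and labels give the arrays on which each probe was well above background.

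Across the 17 probes, 6 genes had more than 1. Of the 7 probes that did not represent their gene, 5 placed both knockout arrays above both wild-type arrays, as did 17.9% of all tested genes. The NM_027057 probe of Wdfy1 and the second Sh3bgrl2 probe did not. Since the genes were chosen on this contrast, the count supports nothing. For the second probes of Map2, Atp8b4 and Ccdc184 the order also includes wild-type signal below background. Only 3 of the 7 were above background on all 4 arrays, 2 of Wdfy1 and 1 of Slc43a1. They are other readings of the same RNA and not further samples.

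The genes differed in which knockout array was higher. Penk, Ccdc184, Slc43a1, Atp8b4, Asb2 and Sh3bgrl2 were higher on knockout replicate 2, and Bdh2, Map2, Srgap3 and Wdfy1 on replicate 1. The size of this gap ran from 0.02 (Wdfy1) to 1.31 (Sh3bgrl2) with a median of 0.75, against 0.24 over all tested genes. In wild type the median gap was 0.28, against 0.23 over all tested genes, and Wdfy1 had the largest, at 0.90. The knockout arrays therefore disagreed more on these genes than on a typical gene. Each gap was smaller than the difference between genotypes, but the genes were chosen on that difference, so this supports nothing.

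Relatives and pathway partners of the genes played no part in their choice and were tested in the fit over all genes. Of 183 genes on 10 lists, 130 were tested. Only 2 rose, Ctsl and Slc7a7, 0 fell and 128 did not pass in the limma fit. An unadjusted limma p under 0.05 was found for 23 of the 130 (10 higher and 13 lower), against 2331 of all 20505 tested genes. The share called in either direction was 1.54%, which rests on 2 genes, against 0.736% of all tested genes (0.493% called higher and 0.244% called lower). Both knockout arrays lay above both wild-type arrays for 22 of the 130 and below them for 36, against 17.9% and 21.3% of all tested genes. The median difference over the 130 was -0.04, against -0.02 over all tested genes.

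Among 11 neutral amino acid transporter genes tested beside Slc43a1, Slc7a7, the light chain of a heteromeric transporter that pairs with Slc3a2, rose. It read -2.36 and -2.42 in wild type and -0.61 and -0.66 in the knockout, a difference of 1.76 ± 0.17 (SE, 3.39-fold, limma adjusted p = 0.0376). The other 10 did not pass, among them the transporter genes Slc7a8 (-1.96, adjusted p = 0.166) and Slc16a10 (-0.75, adjusted p = 0.237). Slc43a3, a family member that lies 2 genes from Slc43a1, differed by 0.12. Among 9 opioid and peptide-processing genes tested beside Penk, Ctsl rose, which encodes cathepsin L, a protease that can process proenkephalin and many other proteins. It read -0.33 and -0.10 in wild type and 2.09 and 2.36 in the knockout, a difference of 2.44 ± 0.20 (SE, 5.44-fold, adjusted p = 0.0318). The other 8 did not pass, including Mme, the gene for the enkephalin-degrading neprilysin (-1.63, adjusted p = 0.0662, above background on 1 of 2 knockout arrays), and the convertase gene Pcsk1 (1.48, adjusted p = 0.612). With the normexp background correction given below, Mme differed by -0.10. Pdyn, Pnoc, Oprd1 and Oprk1 were not tested for want of signal. Neither call passed without wild-type replicate 1 (adjusted p = 0.104 for Ctsl and 0.124 for Slc7a7) or without wild-type replicate 2 (0.117 and 0.159) though the differences were then 2.33 and 2.56 for Ctsl and 1.79 and 1.73 for Slc7a7. Both also missed the threshold with quantile normalization (adjusted p = 0.0689 for Ctsl and 0.0804 for Slc7a7) and when testing without a filter on dim probes (0.442 and 0.510). With the replicate number, and so the slide row, as a block the adjusted p was 0.0967 for Ctsl and 0.0973 for Slc7a7. Ctsl differed by 2.43 within row 1 and by 2.46 within row 2, and Slc7a7 by 1.75 and 1.77.

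None of the relatives on the other lists passed. Of 13 P4-ATPase and scrambling genes, the flippase gene Atp8a2 differed by 1.91 (adjusted p = 0.127, above background on 1 of 2 wild-type arrays), the interferon-inducible Plscr1 by 1.07 (adjusted p = 0.0836) and Atp8a1 by -0.70 (adjusted p = 0.195). Of 20 ketone body and iron genes, the heme oxygenase gene Hmox1 differed by -1.46 (adjusted p = 0.0764), the iron transporter gene Slc11a2 by -0.52 (adjusted p = 0.361) and the ferritin gene Fth1 by 0.43 (adjusted p = 0.561). Of 8 SH3BGR and glutaredoxin genes, Sh3bgrl, the paralog of Sh3bgrl2, differed by 1.02 (adjusted p = 0.117), the glutaredoxin gene Glrx by -1.06 (adjusted p = 0.116) and the thioredoxin gene Txn2 by 0.15 (adjusted p = 0.942).

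In the remaining families most differences were small. Among 16 tested ASB and cullin 5 ligase genes, the filamin gene Flnc differed by 0.49 (adjusted p = 0.846) and Asb13 by 0.28 (adjusted p = 0.694). The 16 microtubule-associated genes lay between -0.85 (the doublecortin-like kinase gene Dclk2, adjusted p = 0.446) and 0.32, with Mast1 at -0.80 (adjusted p = 0.363, above background on 1 of 2 knockout arrays) and the end-binding Mapre2 at -0.57 (adjusted p = 0.418). Among 12 srGAP, Slit-Robo and Rac pathway genes the largest were the guidance receptor gene Robo3 (-1.41, adjusted p = 0.756, above background on 1 of 2 knockout arrays), Rac3 (-0.46, adjusted p = 0.522) and Wasl (-0.35, adjusted p = 0.854). Among 14 FYVE-domain and Toll adaptor genes they were Zfyve16 (0.89, adjusted p = 0.163), Fgd1 (-0.80, adjusted p = 0.423, above background on 1 of 2 knockout arrays) and the paralog Wdfy2 (-0.58, adjusted p = 0.349).

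Since several of the 10 are known from neurons, 22 neuronal genes were also read. Of these 11 had enough signal to be tested and 0 passed. An unadjusted limma p under 0.05 was found for 4 of the 11, against 2331 of all 20505 tested genes. Each of these 4 was below background on at least 1 array of the genotype where it was lower. The count thus rests on unmeasured signal and says nothing about neuronal genes as a group. The neurofilament genes Nefm and Nefl had signal above background in the knockout (2 of 2 arrays) but not in wild type (0 of 2). Nefm read 0.26 and 0.66 in the knockout and was at least 28.4-fold higher there, without passing (limma adjusted p = 0.0881). Nefl read -0.97 and -0.77 and was at least 10.8-fold higher, also without passing (adjusted p = 0.169). The NMDA receptor gene Grin1 went the other way and was at least 1.35-fold lower (limma adjusted p = 0.187). Its signal was dim in wild type (-4.09 and -3.65), and with the normexp background correction given below it differed by 0.24. The direction of Grin1 thus depended on how background was treated. The median over the 11 was 0.21. Gap43, Ncam1, Syn1, Stmn2 and Rbfox3 were among the 11 not tested.

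**Figure D3:**
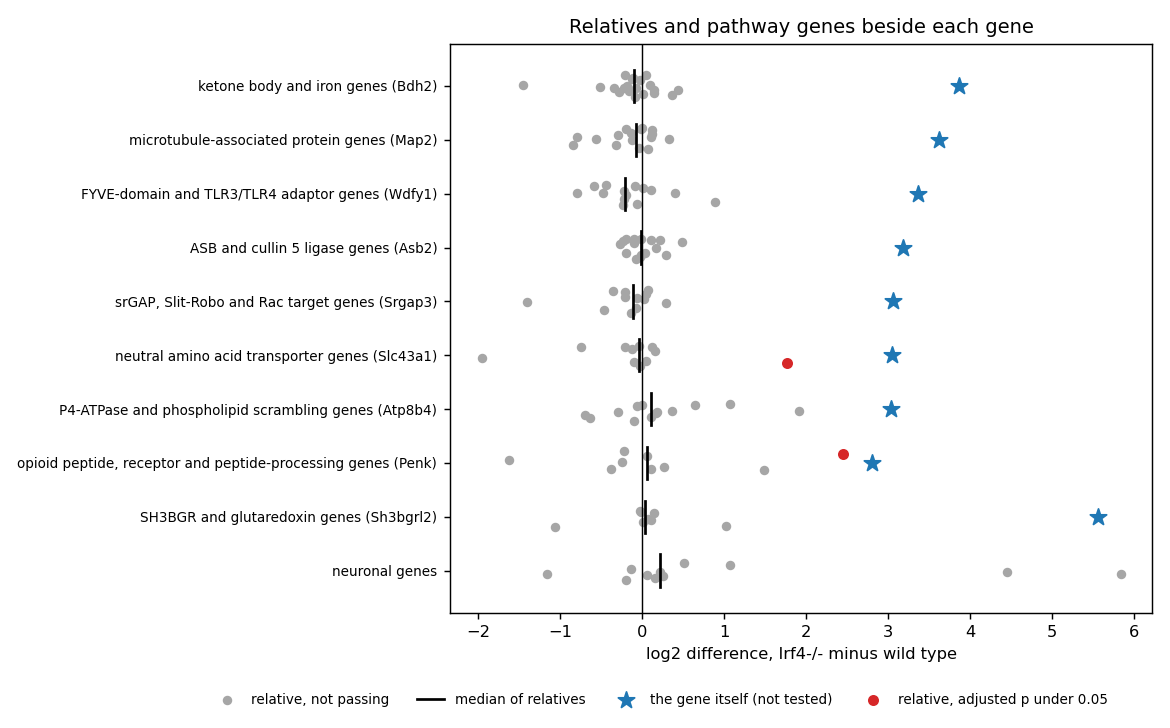
Log2 differences between knockout and wild type (horizontal axis) for the tested members of 10 lists, 1 list per line, with grey points for genes that did not pass, red points for those with an adjusted p under 0.05, a black bar for the list's median and a blue star for the gene each list was built around. The medians lie between -0.21 and 0.21 while the stars lie between 2.80 and 5.56, and the only red points are Slc7a7 (1.76) and Ctsl (2.44); the Sh3bgrl2 star and the points of Nefm and Nefl are plain differences that include signal below background.

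The 10 genes lie on 8 chromosomes, with Map2 and Wdfy1 on chromosome 1 and Slc43a1 and Atp8b4 on chromosome 2. Of the 40 nearest genes with probes, 2 on each side of each gene in the order of the RefSeq table, 22 were tested. None passed in the limma fit, and their median difference was 0.10. An unadjusted limma p under 0.05 was found for 5 of the 22, against 2331 of all 20505 tested genes. The largest differences were those of Slc9b2, a sodium-proton exchanger gene next to Bdh2 (1.88 ± 0.31 SE, adjusted p = 0.0881), Slc27a2, a fatty acid transport gene next to Atp8b4 (1.43 ± 0.40 SE, adjusted p = 0.259, above background on 1 of 2 wild-type arrays), and Serpine2, a protease inhibitor gene near Wdfy1 (1.35 ± 0.19 SE, adjusted p = 0.0666). Slc9b2 read 0.45 and -0.23 in wild type and 2.21 and 1.76 in the knockout. Serpine2 read 3.54 and 3.70 in wild type and 5.08 and 4.86 in the knockout, so that for both the groups did not overlap, as for 17.9% of all tested genes. The genes directly on the other side of Bdh2 and Wdfy1, Cenpe and Ap1s3, differed by -0.36 and -0.26. Both flanking genes of Slc43a1 that were nearest, Timm10 and Rtn4rl2, differed by 0.11 and -0.14.

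The genes whose pattern over the 4 arrays came nearest to the 10 were found by the Euclidean distance between each gene's levels, centred on their own mean, and the median centred levels of the 10. The nearest 5 outside the list with a symbol were Tnfsf13b, which encodes the B cell survival factor BAFF (distance 0.29), the caveolin gene Cav2 (0.34), the relaxin family gene Rln3 (0.38), the zinc finger gene Plagl1 (0.45) and 1110046J04Rik (0.48). Of the 10 themselves Asb2 was the closest to the common pattern (0.35) and Sh3bgrl2, with wild-type levels below background, the farthest (2.39). Plagl1 read -0.35 and -0.10 in wild type and 2.87 and 2.61 in the knockout, and Rln3 read -3.77 and -3.73 in wild type and -0.84 and -0.73 in the knockout. Tnfsf13b, Cav2 and 1110046J04Rik were not above background in wild type. With 4 arrays in 2 groups, a short distance mostly reflects a difference of similar size between the genotypes.

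The sizes depended on how background was treated. With the normexp correction, which adds an offset of 50 to each signal and so compresses low values, the differences were 1.39 for Srgap3, 1.60 for Sh3bgrl2, 1.66 for Map2, 1.91 for Slc43a1, 2.04 for Atp8b4, 2.27 for Bdh2, 2.51 for Wdfy1, 2.56 for Asb2, 2.74 for Ccdc184 and 2.68 for Penk. Penk changed the least. Some dim relatives also moved with this correction, with Mast1 at -0.005 and Fgd1 at 0.03. Averaging all probes of a gene that were measured on both arrays of either genotype gave 2.16 for Wdfy1, 1.91 for Slc43a1 and 3.51 for Atp8b4. The Atp8b4 value includes a second probe below background in wild type and is no estimate of the fold. Under every setting run, each gene was higher in the knockout.

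**Figure D4:**
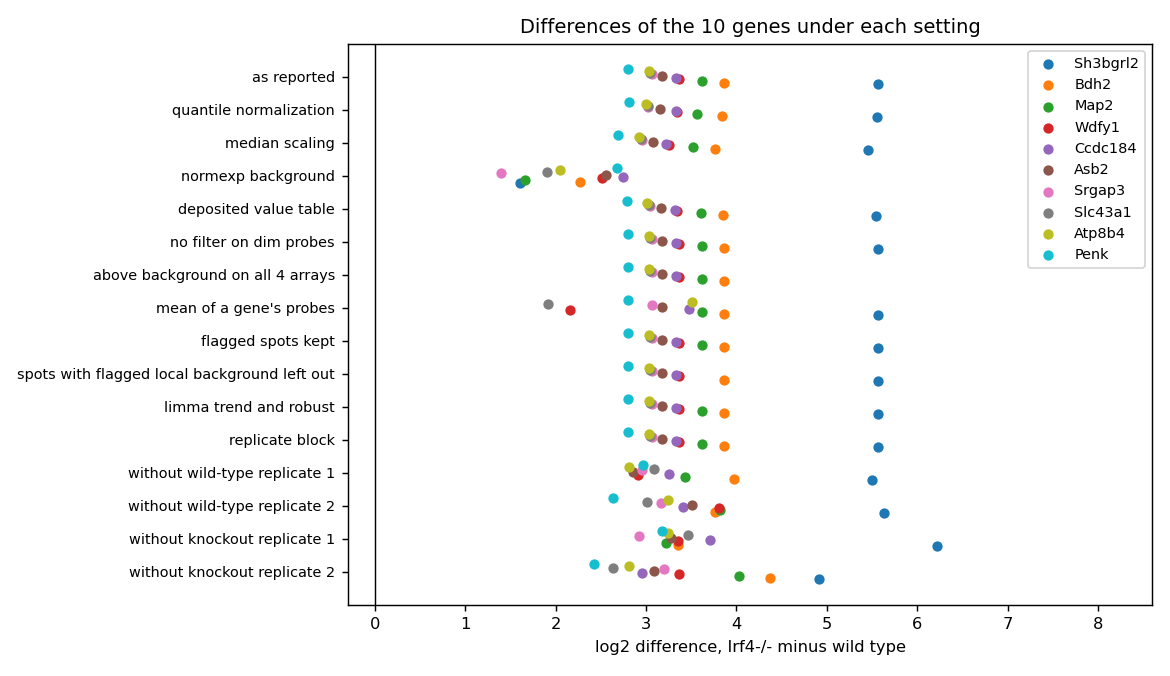
Log2 difference between knockout and wild type (horizontal axis) for each of the 10 genes, 1 colour per gene, under the reported setting and each alternative (vertical axis). All points lie to the right of 0, and the line for normexp background correction runs from 1.39 to 2.74; Sh3bgrl2, plotted as a plain difference that includes signal below background, is missing from the line for genes above background on all 4 arrays, and Map2 from the line without spots of flagged local background.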

How the data were processed

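RNA from 4 samples was measured on one-colour (Cy3) Agilent arrays, each of 62976 spots. The authors' spot intensity values come from version 11.0.1.1 of Agilent Feature Extraction, per the file headers. Version 9.1 stands in the submitters' processing notes. The deposited intensity is the processed signal, background-subtracted and not normalized between arrays. The authors' deposited table holds log2 values centred per probe and matched the scanner files up to a shift of at most 0.029 per array. Its column medians were -0.17 and 0.10 for wild type and -0.11 and 0.12 for the knockout, so it served as an alternative source of differences.

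Control spots and spots with feature outlier or manual flags were left out. Accessions of 32994 of 56605 probes matched symbols in the RefSeq table of GRCm38.p6. The array design names build mm9, so the RefSeq gene table served only for names and gene order. Promoter sequences and their coordinates are those of the RefSeq promoter table of GRCm38.p6. A gene is represented by its probe with the highest mean, and was tested where either genotype had that probe well above background on 2 of 2 arrays. Computed here were log2, subtraction of each array's 75th percentile and limma 3.58.1 (lmFit and eBayes) in R 4.3.3. Adjusted p-values (Benjamini-Hochberg) cover all 20505, with 0.05 as the threshold. The script was tested on simulated data. Each array had 25677 to 28725 probes well above background, and 4 arrays limit the precision of every value.

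The members, the lists and the tests were chosen with earlier results of these data known. The text names all 10 genes with all their probes, up to 4 passing relatives per list and up to 3 others with the largest difference, the 3 flanking genes with the largest difference, and the 5 genes nearest in pattern; Slc43a3, neighbours given as a contrast and genes said to be untested were named outside this rule after their values were seen. One gene that the rule names is not reported here.

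Alternatives were other scalings, background corrections, filters, probe rules and flags, limma's trend and robust settings, a replicate block, the deposited table and leaving out each array.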

Additional observations from a re-analysis of the deposited data

How the results depend on the processing

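The median difference over the 10 genes (3.26) moved by more than the replicate spread only with normexp (2.16), whose offset compresses dim signals, and all 10 genes had both knockout arrays above both wild-type arrays wherever they were fitted. The fit on genes above background on all 4 arrays leaves out Sh3bgrl2, and leaving out spots with flagged local background, an alternative chosen after seeing the data, leaves out Map2. Files hold no mean spot signal, so normexp used the median signal. Of 148 single differences of the 10 genes under the alternatives, 136 moved by less than 1 SD and 12 by more, none with a change of sign. The 12 came from normexp and from averaging a gene's probes. The replicate block, the trend and robust settings, the filters and the flags keep these differences the same by construction. Leaving out an array moves a group mean by less than that group's SD. The 136 are therefore no measure of stability.

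Counts over all genes were less stable. Of 101 higher and 50 lower, limma called 0 and 1 with quantile normalization (2518 at an unadjusted p under 0.05), 594 and 448 with median scaling, 461 and 299 with normexp, 179 and 81 from the deposited table, 486 and 311 with trend and robust settings, and 0 and 0 without a filter (2099 unadjusted). Median scaling moves the median of all genes to -0.13. With the replicate number as a block, it called 0 and 0 (3195 unadjusted); the numbers share a slide row, but the labels do not pair the samples (deviations of same-numbered arrays correlated at r = 0.348), and with 2 pairs this settles nothing. Leaving out 1 array gave 0 to 331 higher and 0 to 156 lower, with 0 and 0 without wild-type replicate 1 (1864 unadjusted) or 2 (1678 unadjusted), and 331 and 156 without knockout replicate 1.

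Of the listed relatives 2 were called, 12 with median scaling, 9 each with normexp and with trend and robust settings, 0 each with quantile normalization, without a filter and with the replicate block, and 0 to 4 with 1 array left out. Of the flanking genes 0 were called, 3 with median scaling, 2 each with normexp and with trend and robust settings and 1 with only genes above background on all 4 arrays. The counts with median scaling act as a cut on fold, as above, and are no measure against the spread between arrays. The causes of these changes were not tested.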
